A study of Cicer arietinum with 11 samples.

Results

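This account concerns 16 chickpea (Cicer arietinum) transcripts, of 34760 measured, that were low in vegetative tissue and present, with less than 3-fold variation, in every sampled stage of flower development. They were chosen from the RPKM values themselves (reads scaled by transcript length and by the total reads of the library). The lowest of the 8 flower bud and flower libraries had to reach at least 5 RPKM and at least 5 times the highest of the 3 vegetative libraries, and the highest of the 8 had to stay under 3 times the lowest. The difference from vegetative tissue and the limited range across the 8 libraries are therefore given below as a description, with no test. All plants were of the genotype ICC4958. The vegetative group held young leaves of mature plants, a germinating seedling, and a shoot apical meristem sample labelled as from 20-day-old plants. The 2 reproductive groups were flower bud stages 1 to 4 and flower stages 1 to 4 of mature plants. Seedlings grew in a culture room and mature plants in the field. Age and growing site therefore cannot be told apart from tissue where the seedling is compared with mature plants. Nor can age where the meristem of the younger plants is compared with leaves, buds or flowers. The growing site of those 20-day-old plants is not stated here, so whether site also differs in that comparison is left open. Each tissue or stage had 1 library, so every SD and p-value here measures the spread between tissues or stages, not between plants. The libraries are bulk tissue, in which fewer cells of a type and less RNA per cell cannot be told apart.

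As background, a papilionoid legume flower such as that of chickpea forms its sepals, petals, stamens and carpel from a small floral meristem, and the bud then enlarges until the flower opens. In well studied plants such as Arabidopsis, some genes are switched on when floral organs are first laid down and remain active in those organs until the flower is mature, while many others act in a single phase, such as pollen formation. Whether the 16 transcripts belong to genes of the first kind is not known here: no gene name accompanies an ID in the files, and 0 of the 34760 IDs were found among the 29938 genes of the reference table. Their roles and sequences are not given, and no marker transcripts were available to check the tissue labels. Library totals recovered from the RPKM values ran from 14536530 reads (flower bud 2) to 35643139 (flower bud 3).

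Both conditions held together for few transcripts. An RPKM of at least 5 in all 8 reproductive libraries was reached by 12962 transcripts, of which 74.5% varied less than 3-fold among the 8. Only 112 of the 12962 were at least 5 times above all vegetative libraries, and 16 of these 112 (14.3%) varied less than 3-fold. The other 96 had a median ratio of highest to lowest reproductive level of 13.3, against 2.12 for the 16. These ratios follow from the rule and are given to place the set. Over the 30720 transcripts that reached 1 RPKM in 3 or more reproductive libraries, 6.11% had every reproductive library above every vegetative one, a condition that the rule imposes on all 16.

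Summed over the 16 transcripts, the RPKM was 5.92 in the germinating seedling, 11.3 in young leaves and 23.9 in the shoot apical meristem. In flower buds 1 to 4 the same sum was 1224, 1276, 1262 and 1231 RPKM. In flowers 1 to 4 it was 1395, 1437, 1249 and 1105 RPKM. As deposited, the sum was highest in flower 2 and lowest in flower 4. This order depended on scaling: with median-of-ratios scaling, tried after seeing the data, flower 1 was highest (1443) and flower bud 1 lowest (1052). With quantile normalization, also tried after seeing the data, flower 2 (1481) stayed highest and flower 4 (1011) lowest. The gap between leaves and meristem shrank under both scalings. With median-of-ratios scaling the seedling, leaves and meristem had 6.14, 14.9 and 20.0 RPKM. With quantile normalization they had 4.05, 16.9 and 19.6 RPKM. The most abundant transcripts weigh most in these sums. The 16 transcripts together held 133, 287 and 726 reads in the 3 vegetative libraries and between 17908 and 43861 reads in the reproductive ones.

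**Figure D1:**
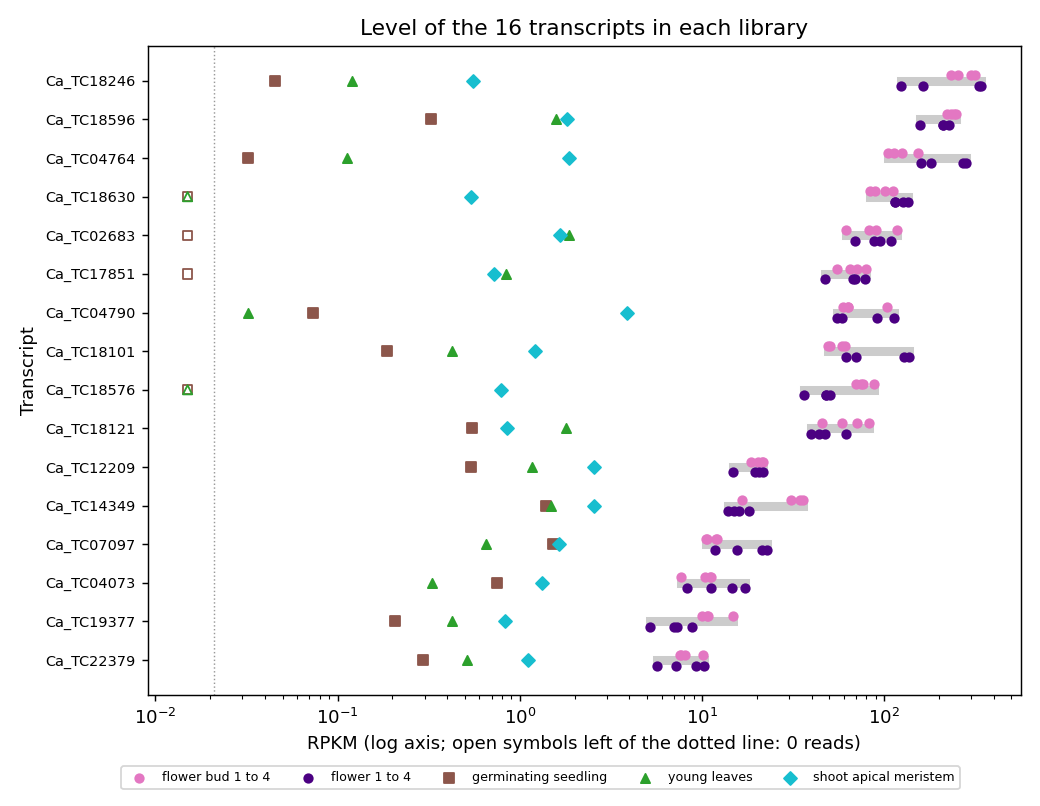
Level of each of the 16 transcripts in the 11 libraries in RPKM (log axis), ordered by the median of the 8 reproductive libraries; grey bars span the 8, and open symbols left of the dotted line stand for 0 reads. The highest vegetative value of a transcript lies between 0.538 and 3.89 RPKM, while reproductive medians run from 7.84 to 277 RPKM.

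The 16 transcripts are described here as a low and a high class by level, as the plot of levels by library shows. The rule used both level and distance from vegetative tissue, and its limits of 5 RPKM and 5 times cut off the lower end. The classes are therefore a description of the set chosen. The low class held 6 transcripts, whose lowest reproductive library was between 5.16 and 14.9 RPKM and between 5.09 and 6.40 times the highest vegetative one. The high class held 10 transcripts, with a lowest reproductive library of 36.3 to 157 RPKM, which was 14.2 to 223 times the highest vegetative one. Vegetative levels overlapped between the classes: the highest vegetative library of a transcript ran from 0.832 to 2.56 RPKM in the low class and from 0.538 to 3.89 RPKM in the high class.

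Ca_TC18246 was the most abundant of the 16. From flower bud 1 to 4 it had 234, 317, 299 and 256 RPKM, followed by 339, 331, 164 and 123 RPKM in flowers 1 to 4. In the germinating seedling, leaves and meristem it had 0.0454, 0.120 and 0.552 RPKM, from 1, 3 and 16 reads. Its lowest reproductive library was 223 times the meristem, the widest gap of the 16. The 8 reproductive libraries were not level: flowers 3 and 4 lay below all 6 others.

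Ca_TC18596 was the next in level and among the steadiest. Its flower buds had 221, 247, 232 and 242 RPKM and its flowers 211, 226, 210 and 157 RPKM, with a coefficient of variation of 12.9% over the 8 libraries. Vegetative values were 0.327 RPKM in the germinating seedling, 1.58 in young leaves and 1.82 in the shoot apical meristem. Flower 4 was the single low library, and the other 7 lay between 210 and 247 RPKM.

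Ca_TC12209, of the low class, varied least: 18.6, 21.7, 20.4 and 21.4 RPKM in flower buds 1 to 4 and 20.5, 21.8, 14.9 and 19.6 RPKM in flowers 1 to 4. The highest was 1.46 times the lowest and the coefficient of variation 11.6%. Its vegetative values were 0.542, 1.17 and 2.56 RPKM in the seedling, leaves and meristem. Here flower 3 was the low library, with 210 reads and a 95% Poisson interval of 12.9 to 17.0 RPKM. That interval lies apart from the 19.8 to 23.9 RPKM of flower 2, the highest.

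Ca_TC18630 and Ca_TC17851 were also among the steadiest, with ratios of highest to lowest of 1.62 and 1.67. From flower bud 1 to 4 Ca_TC18630 had 83.6, 88.8, 100 and 112 RPKM, followed by 127, 136, 115 and 115 RPKM in flowers 1 to 4, and it had 0 reads in both the germinating seedling and young leaves. Ca_TC17851 had 65.1, 79.0, 70.7 and 55.4 RPKM in the buds and 67.9, 78.8, 69.4 and 47.2 RPKM in the flowers. The first climbed through every bud stage to flower 2, whereas the second reached nearly the same high value in flower bud 2 and flower 2 and its lowest in flower 4. By this measure, the 5 steadiest were completed by Ca_TC22379, with a ratio of 1.83 between its highest (10.3 RPKM) and lowest (5.64 RPKM) library. Ca_TC22379 rests on 20 to 41 reads per reproductive library, at a recovered length of 143 bases. At that length the Poisson intervals of its highest and lowest library overlapped, reaching 8.72 RPKM for the lowest and down to 6.95 RPKM for the highest. At 286 bases, which the values also allow, the reads double and the intervals lay apart (up to 7.68 and from 7.86 RPKM). For the other 15 transcripts the intervals lay apart at either minimum length. Ca_TC02683 came just after it in steadiness, at 1.92.

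Within the 3-fold limit the transcripts followed different courses over the stages. The label numbers are taken as stage numbers, and that they follow development is an assumption. From flower bud 1 to 4, Ca_TC04764 had 114, 105, 125 and 153 RPKM, and from flower 1 to 4 it had 283, 270, 180 and 159 RPKM. Ca_TC07097 had 11.9, 10.5, 10.7 and 12.2 RPKM in the buds and 22.8, 21.4, 15.5 and 11.8 RPKM in the flowers. Both were highest in flower 1 and flower 2, at very different levels, and their log2 profiles had a Pearson r of 0.96 over the 8 libraries, the highest of the 120 pairs. Ca_TC04073 was likewise highest in flowers 1 and 2, at 14.7 and 17.2 RPKM, and lowest in flower bud 1, at 7.69 RPKM.

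Others took the opposite course. From flower bud 1 to 4 Ca_TC18121 had 82.5, 71.3, 58.9 and 45.4 RPKM, followed by 39.9, 43.7, 61.4 and 47.5 RPKM in flowers 1 to 4. It fell in value at each step from flower bud 1 to flower 1. Ca_TC19377 had 14.7 RPKM in flower bud 1 and 5.16 RPKM in flower 2, its highest and lowest libraries, and its r with Ca_TC18121 was 0.82. Its r with Ca_TC18630, which climbed over the same stages, was -0.93, the lowest of all pairs.

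Another course was high at both ends. Ca_TC04790 had 104 RPKM in flower bud 1, then 63.5, 63.0, 59.2, 58.7 and 55.4 RPKM from flower bud 2 to flower 2, and 91.4 and 114 RPKM in flowers 3 and 4. Ca_TC02683 had 118 RPKM in flower bud 1, 61.4 RPKM in flower bud 4 and 109 RPKM in flower 3. Ca_TC18101 shared the late high values but not the early one, with 50.5, 49.4, 58.4 and 61.1 RPKM in flower buds 1 to 4, 62.1 and 70.1 RPKM in flowers 1 and 2, and 128 and 137 RPKM in flowers 3 and 4.

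Ca_TC18576 and Ca_TC14349 were highest in flower bud 4 and lower in every flower than in that bud. Ca_TC18576 had 74.9, 69.6, 76.7 and 88.3 RPKM in the buds and 48.1, 50.7, 48.2 and 36.3 RPKM in the flowers. Ca_TC14349 had 16.6, 31.0, 34.7 and 35.7 RPKM in the buds and 18.1, 13.8, 15.0 and 15.9 RPKM in the flowers. For Ca_TC14349 the first bud therefore lay at the level of the flowers, and its groups overlapped.

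Over the 120 pairs of the 16 transcripts the median r of log2 RPKM was -0.04, with 4 pairs at 0.8 or more and 8 at -0.8 or less. These values describe 8 libraries whose profiles share library totals. Pairs of other transcripts were not counted, so whether such pairs are many or few among the 16 is not known. They show no course common to the set.

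**Figure D2:**
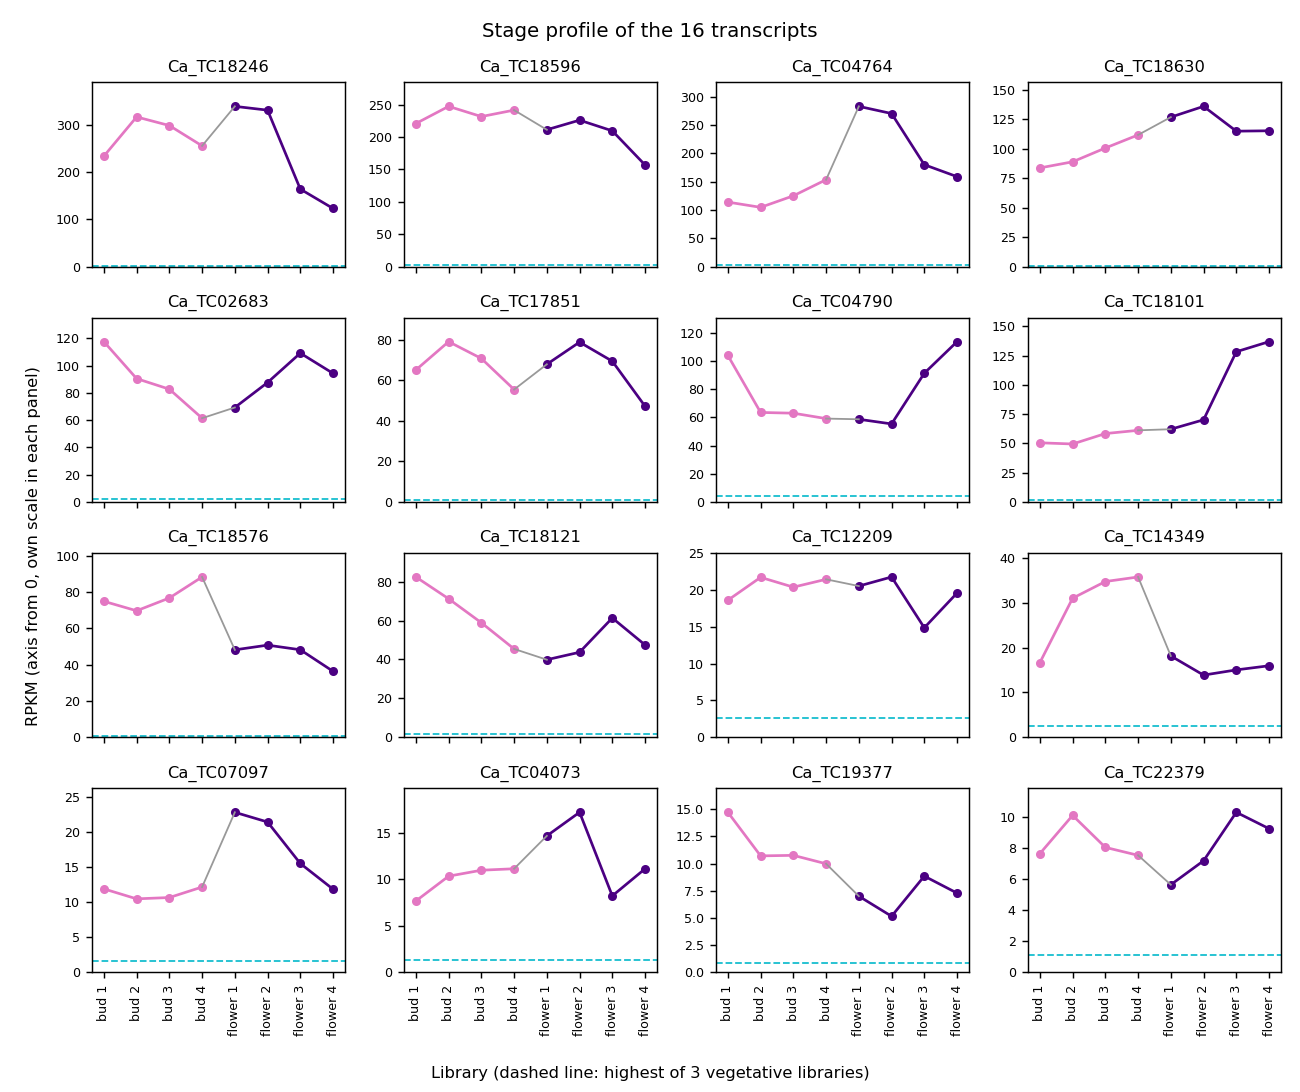
RPKM of each of the 16 transcripts in flower buds 1 to 4 and flowers 1 to 4, each panel from 0 on its own scale, with the highest vegetative value as a dashed line. Courses differ: Ca_TC04764 is highest in flower 1 (283 RPKM), Ca_TC18101 in flower 4 (137 RPKM) and Ca_TC18121 in flower bud 1 (82.5 RPKM).

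From one stage to the next, the 16 transcripts moved least between flower 1 and flower 2, with a median change of 1.08-fold in either direction, and most between flower 2 and flower 3, with 1.42-fold. The same steps had medians of 1.09-fold and 1.27-fold in the 9637 steady transcripts less than 5 times above vegetative tissue. The step from flower bud 4 to flower 1 had a median of 1.27-fold and that from flower 3 to flower 4 also 1.27-fold. At both steps the median of the same 9637 transcripts was 1.19-fold. A change of at least 1.5-fold between flowers 2 and 3 was seen upward in 3 transcripts (Ca_TC04790, Ca_TC18101 and Ca_TC19377) and downward in 3 (Ca_TC04073, Ca_TC04764 and Ca_TC18246). Of the 12962 transcripts at 5 RPKM or more in all reproductive libraries, 16.3% moved up and 20.3% down that far at this step. The shares among the 16 were near that background, which also holds transcripts beyond the 3-fold limit. Of the 9637 steady transcripts, which met that limit, 1160 rose and 1354 fell that far. With 3 of 16 in each direction, no conclusion is drawn from these shares. The largest single step was the fall of Ca_TC04073 from 17.2 to 8.24 RPKM, 2.09-fold. These are ratios of single libraries with no replicate check.

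The 3 vegetative tissues were not equally low. The rule limits their highest value but not which of them is highest, and for 13 of the 16 transcripts it was the shoot apical meristem, the dome of dividing cells from which leaves and, later, flowers arise. Among the 12952 transcripts with at least 5 RPKM in all reproductive libraries and any vegetative reads, 48.8% were highest in the meristem. At a larger margin, the meristem was at least 2 times both other vegetative libraries for 8 of the 16, where the background was 11.7%. The same margin was met by 23.3% of the reproductive transcripts that were not steady (86 with vegetative reads) and by 10.1% of the 9637 steady transcripts that were less than 5 times above vegetative tissue. The germinating seedling was highest for none of the 16, and young leaves were for 3.

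These vegetative values rest on few reads, 5 to 140 per transcript in the meristem, and on 1 library per tissue. The count of 13 was 11 under median-of-ratios scaling, which divided the meristem by 1.19 and young leaves by 0.760, with a background of 29.4%, and 11 under quantile normalization, with 33.4%. The count of 8 became 5 (background 5.31%) and 6 (6.71%) under the same scalings, which were chosen after seeing the data. By counting error alone, the Poisson interval of the meristem lay above those of the other tissues for 7 transcripts and that of young leaves for 1, while for the other 8 the highest and the next tissue overlapped.

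Ca_TC04790 had the clearest meristem level, 3.89 RPKM from 140 reads (interval 3.28 to 4.59), against 0.0733 RPKM from 2 reads in the seedling and 0.0323 RPKM from 1 read in leaves. Ca_TC04764 had 1.85 RPKM from 76 reads in the meristem, with 1 read in the seedling and 4 in leaves. Ca_TC18576 had 18 meristem reads (0.785 RPKM) and Ca_TC18630 had 19 (0.538 RPKM), and both had 0 reads in the seedling and in leaves. For these 4, as for Ca_TC18246, the meristem was the only vegetative library with more than 4 reads. A count of 0 does not show absence: for Ca_TC18630 the Poisson interval reached 0.138 RPKM in the seedling and 0.121 RPKM in leaves.

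Even there the meristem level was small beside the first bud. In Ca_TC04790 it was 3.74% of the level in flower bud 1, in Ca_TC04764 1.63%, in Ca_TC18576 1.05% and in Ca_TC18630 0.644%. Over all 16 this share ran from 0.236% (Ca_TC18246) to 17.2% (Ca_TC04073).

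Young leaves were highest for Ca_TC18121, with 1.79 RPKM (interval 1.35 to 2.32) against 0.852 RPKM (0.579 to 1.21) in the meristem, and these intervals lay apart. For Ca_TC02683, at 1.85 and 1.66 RPKM in leaves and meristem, and for Ca_TC17851, at 0.837 and 0.721 RPKM, they overlapped. Both of the latter had 0 reads in the seedling. Ca_TC07097 was nearly equal in the seedling (1.52 RPKM) and the meristem (1.64 RPKM), with overlapping intervals, and lowest in leaves (0.648 RPKM).

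**Figure D3:**
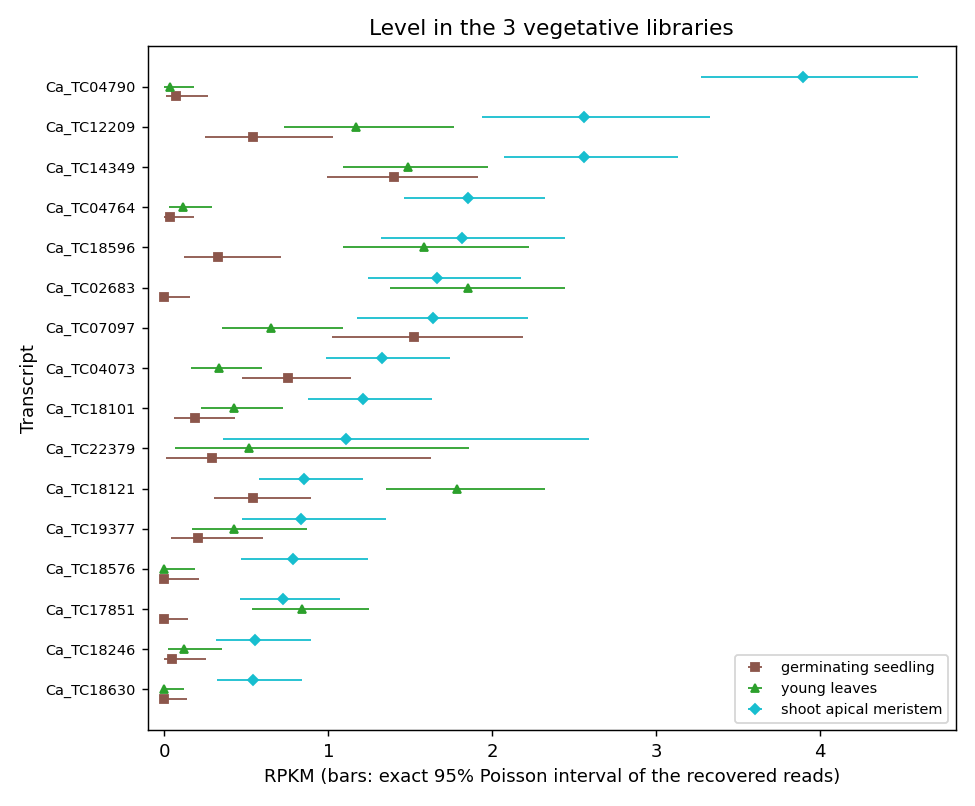
RPKM of the 16 transcripts in the germinating seedling, young leaves and shoot apical meristem, with exact 95% Poisson intervals of the recovered reads, which cover counting error only. The meristem is highest for 13 transcripts and stands apart from both other tissues for 7, of which Ca_TC04790 at 3.89 RPKM has the highest level.

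Flowers were next compared with flower buds, a contrast whose direction the rule leaves free but whose size its 3-fold limit caps. The comparison used limma on log2(RPKM + 1) over the 4 flower and 4 flower bud libraries and all 30720 transcripts tested, with Benjamini-Hochberg adjustment. Of the 16 transcripts, 1 was called higher in flowers and 2 lower at an adjusted p under 0.05, where 7.19% of all tested transcripts were called higher and 10.7% lower. The counts among the 16 lie near that background. The mean of the 4 flowers was above that of the 4 buds for 7 transcripts and below it for 9.

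Ca_TC04764 rose from 124 ± 21.2 RPKM (SD, n = 4) in flower buds to 223 ± 62.8 RPKM (SD, n = 4) in flowers, with 4 of 4 flowers above every bud. Its flowers exceeded its buds by a log2 value of 0.81 ± 0.24 (SE) in limma (adjusted p = 0.0443). Ca_TC18576 fell from 77.4 ± 7.86 RPKM (SD, n = 4) to 45.8 ± 6.47 RPKM (SD, n = 4), with 4 of 4 flowers below every bud and a change in log2 of -0.75 ± 0.16 (SE) in limma (adjusted p = 0.0152). Ca_TC14349 fell from 29.5 ± 8.83 RPKM (SD, n = 4) to 15.7 ± 1.81 RPKM (SD, n = 4), a change in log2 of -0.82 ± 0.24 (SE) in limma (adjusted p = 0.0460), but its first bud lay among the flowers.

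None of these 3 calls held under every setting. In limma, Ca_TC18576 kept its call in 13 of 16 alternatives and lost it, among others, under median-of-ratios scaling (adjusted p = 0.0512) and with the vegetative libraries in the fit (0.0736, the highest over all 16). Ca_TC04764 lost its call in 9 of 16 alternatives (limma, adjusted p of 0.0268 to 0.151) and Ca_TC14349 in 13 of 16 (limma, adjusted p of 0.00747 to 0.125). Ca_TC04764 lost it when any of flower buds 1, 2 and 3 or flowers 1, 2 and 3 was left out, with log2 differences of 0.77, 0.73, 0.82, 0.68, 0.70 and 0.90 (limma, adjusted p = 0.0988, 0.121, 0.0957, 0.0891, 0.0997 and 0.0539). Ca_TC14349 lost it when any library but flower bud 1 was left out, with log2 differences of -0.88 to -0.71 (limma, adjusted p of 0.0576 to 0.115), and without flower bud 1 its difference was -1.06 (limma, adjusted p = 0.00747). All 3 kept their sign in all 16. Some members gained a call in limma: Ca_TC19377 among transcripts with a mean of at least 5 RPKM (adjusted p = 0.0440), Ca_TC07097 under median-of-ratios scaling (0.0402) and without flower 4 (0.0400), and Ca_TC18101 without flower 1 (0.0356). Over their 16 alternatives these ran from 0.0440 to 0.144, 0.0400 to 0.193 and 0.0356 to 0.168. Over all tested transcripts the median log2 difference was -0.16 as deposited and -0.01 under median-of-ratios scaling, and the share of higher calls went from 40.2% to 56.1%. Against this shift Ca_TC04764 had 0.81 and 0.99, and Ca_TC18576 -0.75 and -0.57.

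Flowers and buds did not overlap for 5 of the 16. Flowers lay above all buds for Ca_TC04764, Ca_TC18101 and Ca_TC18630 (3 of 16, against 9.20% of all tested transcripts) and below them for Ca_TC18576 and Ca_TC19377 (2 of 16, against 17.1%). Ca_TC18101 had a log2 difference of 0.77 with a 95% interval of 0.16 to 1.37 (limma, adjusted p = 0.0767), Ca_TC18630 one of 0.36 with 0.00412 to 0.714 (limma, adjusted p = 0.138) and Ca_TC19377 one of -0.64 with -1.10 to -0.18 (limma, adjusted p = 0.0582). For the other 11 transcripts the groups overlapped. For Ca_TC02683, Ca_TC04790, Ca_TC12209, Ca_TC17851 and Ca_TC22379 the sign of the difference changed between settings, so no direction is given; their 95% intervals reached from -0.54 at the lowest to 0.74 at the highest.

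**Figure D4:**
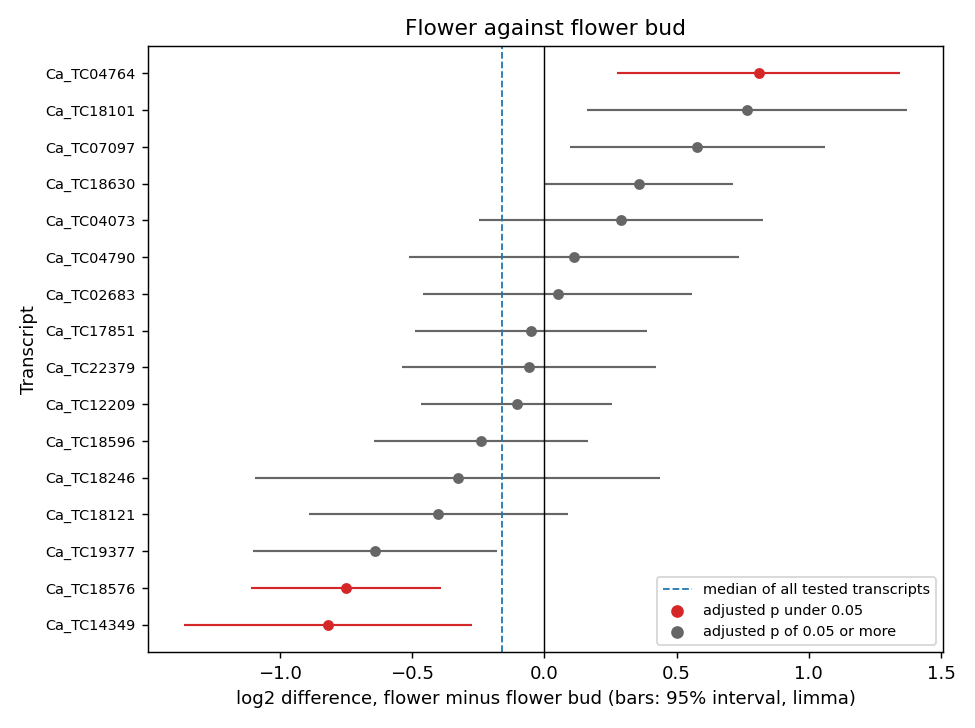
log2 difference of flower minus flower bud for the 16 transcripts with 95% intervals (limma, 4 libraries in each group); red marks an adjusted p under 0.05 and the dashed line the median of all tested transcripts. Differences spread to both sides of 0, from -0.82 (Ca_TC14349) to 0.81 (Ca_TC04764).

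Transcript length, which the rule did not use, was recovered along with the reads. The median length of the 16 was 1025 bases, with quartiles of 758 and 1144 and a longest of 1301 bases. The 96 reproductive transcripts that were not steady had a median of 713.5 bases and quartiles of 457 and 1252. The 9637 steady transcripts less than 5 times above vegetative tissue had a median of 1452 bases and quartiles of 996 and 2050. The 16 thus lay between these sets in median length and held no transcript as long as the median of the steady ones. The shortest, Ca_TC22379, was recovered at 143 bases, or 286 where at least 200 were required. Its length and reads thus depend on that minimum, while its deposited RPKM does not. That RPKM still carries counting error. In flower 1, its lowest reproductive library, 5.64 RPKM had a Poisson interval of 3.45 to 8.72 RPKM at 143 bases. At 286 bases the interval was 4.03 to 7.68 RPKM, so at either length it included the limit of 5 RPKM. Level, unlike length, was used by the rule, so its comparison between the sets is a description only. The median level of the 16, 60.9 RPKM over the reproductive libraries, lay between those of the reproductive but not steady set (109 RPKM) and of the steady set (19.7 RPKM).

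Membership was close to the limits for some transcripts. On the lowest reproductive level of 5 RPKM, the members just inside were Ca_TC19377 at 5.16 and Ca_TC22379 at 5.64, and the nearest transcripts outside that met the other conditions had 4.15 and 4.03. On the 5-fold distance from vegetative tissue, Ca_TC22379 at 5.09 and Ca_TC14349 at 5.41 were just inside, and 4.56 and 4.56 just outside. On the 3-fold range, Ca_TC19377 at 2.85 and Ca_TC18101 at 2.77 were just inside, and 3.10 and 3.15 just outside. Ca_TC18246 at 2.76 and Ca_TC04764 at 2.71 came next inside. Ca_TC18101, Ca_TC18246 and Ca_TC04764 each dropped out under at least 1 of the scalings tried. A distance of 10-fold kept 10 of the 16, the high class, as the distances given above imply. A range under 2-fold kept 6: Ca_TC02683, Ca_TC12209, Ca_TC17851, Ca_TC18596, Ca_TC18630 and Ca_TC22379. Left without the shoot apical meristem, the rule would have taken in 10 further transcripts. Other libraries also held transcripts out. The rule would have taken in 8 more without flower 3, 7 without flower bud 1, 6 without the seedling and 4 without young leaves. Without any other single library it would have taken in 1 or 2.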

How the data were processed

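Messenger RNA of 11 chickpea libraries was sequenced, 1 per tissue or stage. Per the series text, the authors used NGS QC Toolkit to filter reads, mapped these to 34760 transcripts and deposited RPKM values. Which aligner was used, and how reads common to several transcripts were counted, is not given in the sources. Near-identical transcripts are therefore uncertain. The 128 blank rows of each file were left out. Whole reads, lengths and library totals were recovered from the steps between RPKM values. All 34703 transcripts above 0 gave whole reads within a relative 4e-09 plus 3e-06 reads at a minimum length of 100 bases, and reads summed to 99.952% to 99.998% of the totals. Intervals cover counting error only. Flower and flower bud were compared with limma 3.58.1 (R 4.3.3) on log2(RPKM + 1) with an intensity trend, for transcripts of at least 1 RPKM in at least 3 of the 8 libraries; the script was tested on simulated data. No minimum size of difference was set, because the members' range is capped. Alternatives were other pseudocounts, filters, scalings, fits, rule limits and leaving out each library. All members were named, and those singled out were the highest, the steadiest, those farthest from vegetative tissue, those called, those with the largest excess in a vegetative tissue and those next to a limit. The members, lists and rules were chosen with earlier results of these data known.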

Additional observations from a re-analysis of the deposited data

Results flagged for a closer look

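In each of the 32 groups of 4 libraries (16 transcripts, flower buds and flowers), the highest and the lowest library were compared with the other 3. In 2 groups, 1 library stood apart by more than Dixon's critical share of the group's range. For groups not selected on their values, chance gives about 1.6. The rule's 3-fold limit acted on these same values, so that figure need not hold here and no conclusion is drawn from it. Ca_TC04790 had 104 RPKM in flower bud 1, against 59.2 to 63.5 in flower buds 2 to 4. Ca_TC19377 had 14.7 RPKM in flower bud 1, against 9.99 to 10.8 in flower buds 2 to 4. In both, the high library was the first bud stage. The stages are different tissues in time and not replicates, and the part of library and stage in these values cannot be told apart.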

How the results depend on the processing

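The 16 members became 26 with a distance of 3-fold, 10 with 10-fold, and 6 with a range limit of 2. The other rule limits and both scalings gave 13 to 24, and 14 of the 16 remained under either scaling. Ca_TC04764 dropped out under both scalings, Ca_TC18101 under median-of-ratios scaling and Ca_TC18246 under quantile normalization. Leaving out 1 library, which can only add members, gave 17 to 26. In limma, 2209 transcripts were higher and 3290 lower in flowers. With the vegetative libraries in the fit these were 793 and 1253, and with stage number as a replicate block 1310 and 1568. Same-numbered buds and flowers deviated from their group means with correlations of -0.201 to -0.0802, and 0 of 8 matched their own number best, so the numbers did not pair the libraries. With the block, Ca_TC18576 had an adjusted p of 0.0690 in limma. Median-of-ratios scaling gave 2850 and 2226, quantile normalization 2532 and 2770, and voom on the recovered reads 2049 and 3038. Leaving out 1 library gave 1106 to 2238 higher and 1442 to 3469 lower, with 1262 and 1998 without flower bud 1, 1106 and 1442 without flower bud 2, 1178 and 1657 without flower bud 3, and 2062 and 1940 lower without flowers 3 and 4. Among the members, the 1 higher and 2 lower calls became 0 and 0 with the vegetative libraries or with the replicate block, 2 and 0 under median-of-ratios scaling, 0 and 1 under quantile normalization, 1 and 1 without a filter or in voom, 1 and 3 with the filter set to a mean of 5 RPKM, and 0 to 2 and 1 to 2 when 1 library was left out. At an unadjusted p under 0.05, 10849 transcripts passed as deposited, 7824 with the vegetative libraries and 9468 with the block. The cause of these changes was not tested. The median member length was 1025 bases under both length minimums. Few reads limit the vegetative values: Ca_TC22379 rests on 8 vegetative reads, and Ca_TC18576, Ca_TC18630 and Ca_TC18246 on 18 to 20.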
